A study of Mus musculus with 10 samples.

Results

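Expression of 10 genes of the G1 phase machinery was followed across 4 groups of mouse cells: the D cyclin genes Ccnd1, Ccnd2 and Ccnd3, the genes of their kinase partners Cdk4 and Cdk6, and the inhibitor genes Cdkn1a, Cdkn1b, Cdkn1c, Cdkn2b and Cdkn2c. They were chosen by name, 10 of 18193 named genes, and every probe set annotated to them alone was used, 26 of the 45101 probe sets on the arrays. None of these 26 was shared with another gene. Ccnd2 had 7 probe sets, Ccnd1, Ccnd3, Cdk4 and Cdk6 had 3 each, Cdkn1a and Cdkn1b had 2 each, and Cdkn1c, Cdkn2b and Cdkn2c had 1 each. Each gene is led below by the probe set that was brightest on average across the 10 arrays, with the others beside it.

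All samples came from CGR8, a single embryonic stem (ES) cell line of strain SV129. ES cells at passages 25, 26 and 27 were left untreated (3 arrays) or given EBIO at 1 mM for 3 days (3 arrays, same passages). Differentiated cells had passed 5 days in an embryoid body assay, in which aggregated ES cells form many cell types, and then 10 days of culture either without EBIO (2 arrays) or with it (2 arrays, dose not given in the sources used here). EBIO is a benzimidazolinone used to open calcium-activated potassium channels, and the series' title concerns its use to direct pluripotent cells towards heart cells, in particular ones that resemble pacemaker cells.

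D cyclins are the growth factor-responsive subunits of the kinases CDK4 and CDK6, which phosphorylate the retinoblastoma protein and so release E2F factors to start S phase. Inhibitors of the INK4 family, among them the products of Cdkn2b and Cdkn2c, bind these kinases alone, whereas CIP/KIP proteins, encoded by Cdkn1a, Cdkn1b and Cdkn1c, bind cyclin and kinase together and also act on cyclin E and A complexes. Mouse ES cells are known for a short G1 phase with low D cyclin activity, and heart muscle cells for leaving the cell cycle as they mature.

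Values are log2 RMA expression values. The ES arrays and the differentiated arrays had been normalized as separate sets, so levels are compared within a stage, and across stages only as percentiles, the share of the probe sets of an array that lie lower. Marker genes of other cell types moved with EBIO. In ES cells 10 of 10 pluripotency genes fell, with a summed linear signal of 32162 to 34906 on control arrays and 4744 to 5278 on EBIO arrays, and 3 of 6 tested smooth muscle genes rose while 1 fell (433 to 725 against 6658 to 7892). Also in ES cells, 4 of 9 tested neural genes rose and 1 fell (1746 to 2108 against 2204 to 2499), and 1 of 4 tested macrophage genes fell and none rose (650 to 828 against 188 to 210). Of 8 tested endothelial genes 3 fell and 1 rose (622 to 741 against 458 to 493). Of 6 tested cardiomyocyte genes 2 fell and 1 rose (304 to 366 against 246 to 294). Of 2 tested fibroblast genes 1 fell (199 to 234 against 170 to 176), and none of 6 tested endoderm and liver genes was called. In differentiated cells 12 of 12 cardiomyocyte genes rose (14120 to 15605 against 111850 to 114140). There all tested fibroblast (10, 69914 to 73126 against 4629 to 4783), macrophage (10, 16137 to 20117 against 249 to 271), endothelial (9, 2324 to 2401 against 847 to 862) and endoderm and liver genes (8, 5277 to 7299 against 457 to 481) fell. Of 8 tested neural genes there 5 rose and 2 fell, while their summed signal was lower with EBIO (2897 to 3131 against 2145 to 2262). Of 8 tested smooth muscle genes 5 rose and 3 fell (14081 to 14694 against 23063 to 24813). RMA values have no 0, so no marker can be called absent from them. Dim markers were not tested, and a marker that passed this filter only through its brighter group had its direction largely set by it. The call of such a marker supports nothing. Of the leading probe sets of all named genes tested, 22.8% were called higher and 20.5% lower in ES cells. In differentiated cells these shares were 31.9% and 31.8%. The difference between 3' and 5' probe sets of Actb, a sign of RNA quality, was 0.33 to 0.50 on control and 0.08 to 0.20 on EBIO arrays of ES cells, and 0.40 to 0.48 on all differentiated arrays. The same difference for Gapdh was -0.08 to 0.06 on control and 0.01 to 0.04 on EBIO arrays of ES cells. On all differentiated arrays it was 0.02 to 0.04. The part of these shifts in the results below was not tested. In such bulk samples fewer cells of a type and less RNA per cell cannot be told apart.

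The first comparison concerned ES cells after 3 days of EBIO. The D cyclin gene Ccnd1 fell 9.74-fold by its leading probe set and 7.60-fold and 5.15-fold by the others. The INK4 gene Cdkn2b rose 9.32-fold, and Cdkn1a and Cdkn2c rose 1.62-fold and 1.61-fold. Of the 26 probe sets, 18 were bright enough to be tested, and 3 rose and 6 fell at an adjusted p under 0.05 (limma). By leading probe set that is 3 genes higher (Cdkn1a, Cdkn2b, Cdkn2c), 2 lower (Ccnd1, Cdk4) and 5 not called. Calls were common on these arrays: 39.5% of all probe sets tested and 43.3% of the leading probe sets of named genes passed (21.8% of probe sets higher and 17.6% lower), against 9 of the 18 member probe sets tested. The median difference was 0.12 over the 10 genes and -0.04 over all genes tested.

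In differentiated cells no member was called higher after 10 days of EBIO. Ccnd1 fell 11.4-fold, Cdk6 fell 2.45-fold, and Cdkn1a, Cdkn2b and Cdkn2c, all of them higher with EBIO in ES cells, fell 1.98-fold, 1.61-fold and 1.54-fold. Of 25 tested probe sets 15 fell, 0 rose and 10 were not called; at an unadjusted p under 0.05 the count of rises was also 0. By leading probe set 6 genes fell (Ccnd1, Cdk4, Cdk6, Cdkn1a, Cdkn2b, Cdkn2c). The background was 61.1% of probe sets and 63.6% of leading probe sets called, with 27.5% of probe sets and 31.8% of leading ones called lower and 33.6% of probe sets higher. The members' 60.0% was near this background. For 1 of the 15 falls, that of Cdk6 probe set 1460291_at, the filter on dim values largely set the direction. This probe set passed the filter only through its control arrays, so its call supports nothing. The median difference was -0.51 over the 10 genes and 0.02 over all genes tested.

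**Figure D1:**
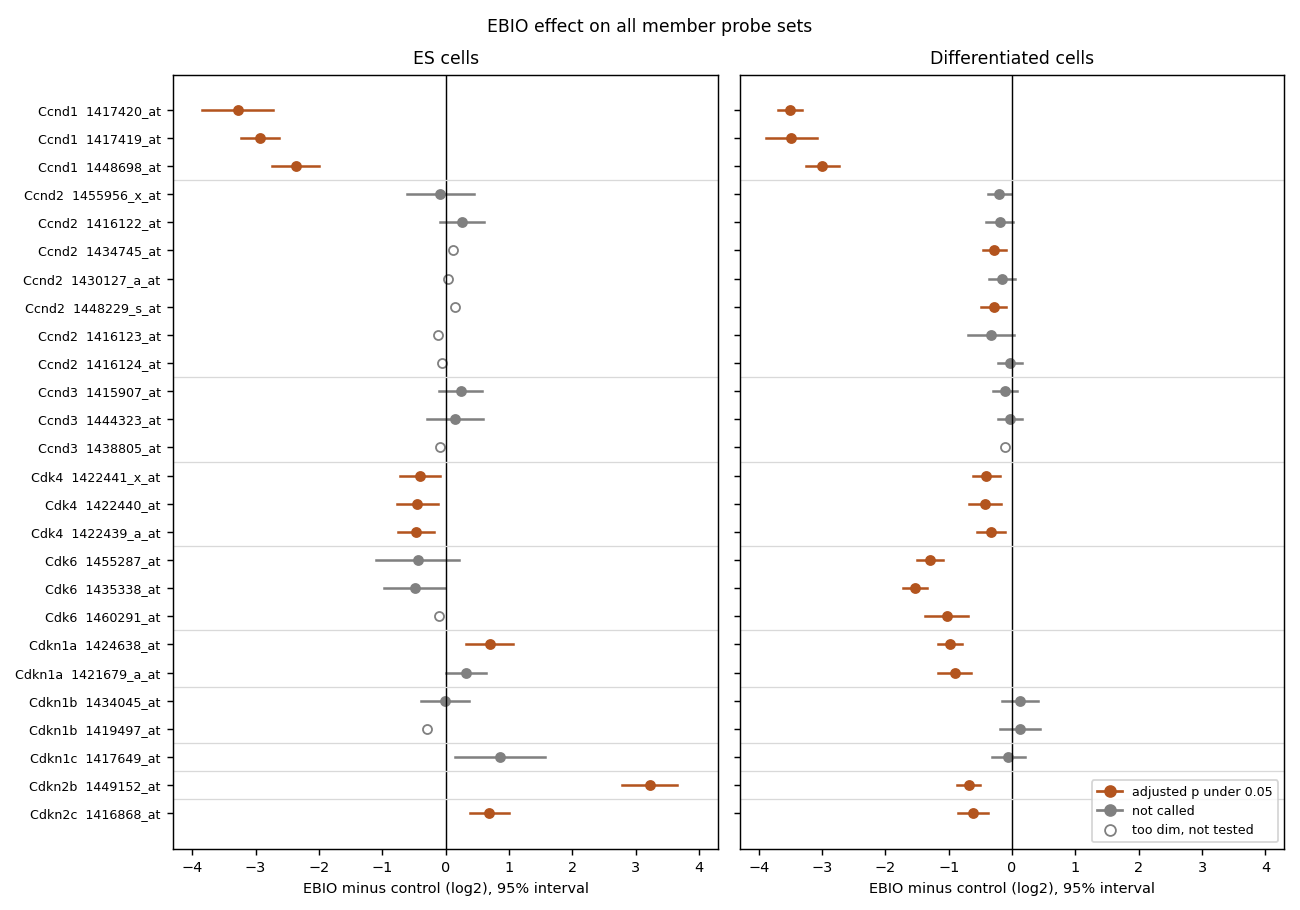
EBIO minus control on the log2 scale (x axis) for all 26 member probe sets (y axis), in ES cells on the left and differentiated cells on the right; lines are 95% intervals from limma, orange marks an adjusted p under 0.05 and open points were too dim to test. The 3 Ccnd1 probe sets lie far to the left in both panels, whereas Cdkn2b, Cdkn2c and Cdkn1a lie to the right of 0 in ES cells and to the left in differentiated cells.

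Ccnd1 encodes cyclin D1, the D cyclin most closely tied to mitogen signalling. Its leading probe set 1417420_at read 8.17, 8.54 and 9.01 on the control ES arrays and 5.37, 4.92 and 5.57 with EBIO. The groups did not overlap, and the highest EBIO array lay more than 2 log2 units under the lowest control. The difference was -3.28 ± 0.24 (SE, n = 3 each, adjusted p = 3.0e-05, limma), a 9.74-fold fall. In differentiated cells it read 10.48 and 10.58 without EBIO and 7.01 and 7.04 with it, a difference of -3.51 ± 0.08 (SE, n = 2 each, adjusted p = 3.4e-06, limma).

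The other probe sets of Ccnd1 gave the same picture. Probe set 1417419_at changed by -2.93 ± 0.13 in ES cells and by -3.48 ± 0.16 in differentiated cells. Probe set 1448698_at changed by -2.36 ± 0.16 and -3.00 ± 0.10. With EBIO its ES values (4.66, 4.38 and 4.89) lay around the array medians, a range in which RMA compresses differences. No alternative setting and no left-out array ended the call of any of the 3 probe sets in either stage.

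Ccnd2, the gene of cyclin D2, ranked far lower within the arrays of ES cells, from the 3.91st to the 74.0th percentile over its 7 probe sets, than within those of differentiated cells, from the 79.8th to the 99.2nd. Probe set 1434745_at, for example, read 4.12, 4.54 and 4.25 in control ES cells and 12.78 and 12.82 in untreated differentiated cells, at the 36th to 49th and the 99.2nd percentile of those arrays. In ES cells 5 of its 7 probe sets were too dim to be tested. The leading probe set 1455956_x_at, whose suffix marks probes that can also match other transcripts, read 6.22, 6.12 and 5.35 without and 5.75, 5.99 and 5.71 with EBIO. These values overlapped, and the difference was -0.08 (95% interval -0.61 to 0.44, adjusted p = 0.81, limma).

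In differentiated cells all 7 Ccnd2 probe sets had a lower mean with EBIO, but by little, from -0.34 to -0.03. The leading one read 12.20 and 12.20 without and 12.00 and 11.99 with EBIO (difference -0.20, adjusted p = 0.053, not called). Only 1434745_at (-0.28 ± 0.07, adjusted p = 0.018) and 1448229_s_at (-0.29 ± 0.08, adjusted p = 0.023) were called in limma. The first lost its call without any single one of the 4 arrays (difference -0.31 to -0.26). With the 4 groups fitted together its call was also lost (adjusted p = 0.26, limma). The second lost its call without control array 1 or either EBIO array (difference -0.29 to -0.23). Its call was also lost without the filter on dim values (adjusted p = 0.054, limma), with arrays centred on their medians (0.063) and with the 4 groups fitted together (0.18). The leading Ccnd2 probe set was called with 1 probe set per gene (adjusted p = 0.038), with eBayes trend and robust settings (0.0086) and with all 10 arrays quantile-normalized (0.046). The 95% intervals of the difference were -3.70 to -3.31 for Ccnd1 and -0.38 to -0.02 for the leading Ccnd2 probe set.

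Ccnd3, the gene of cyclin D3, was bright in all 4 groups. Its leading probe set 1415907_at read 9.95, 10.06 and 9.78 in control and 10.21, 10.36 and 9.95 in EBIO-treated ES cells. The groups overlapped, with a difference of 0.24 (95% interval -0.10 to 0.58, adjusted p = 0.24, limma). In differentiated cells the values were 11.31 and 11.21 against 11.14 and 11.14, which did not overlap, a difference of -0.11 (95% interval -0.31 to 0.08, adjusted p = 0.26, limma). Of the other probe sets, 1444323_at was not called in either stage and 1438805_at was below the array median on every array.

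**Figure D2:**
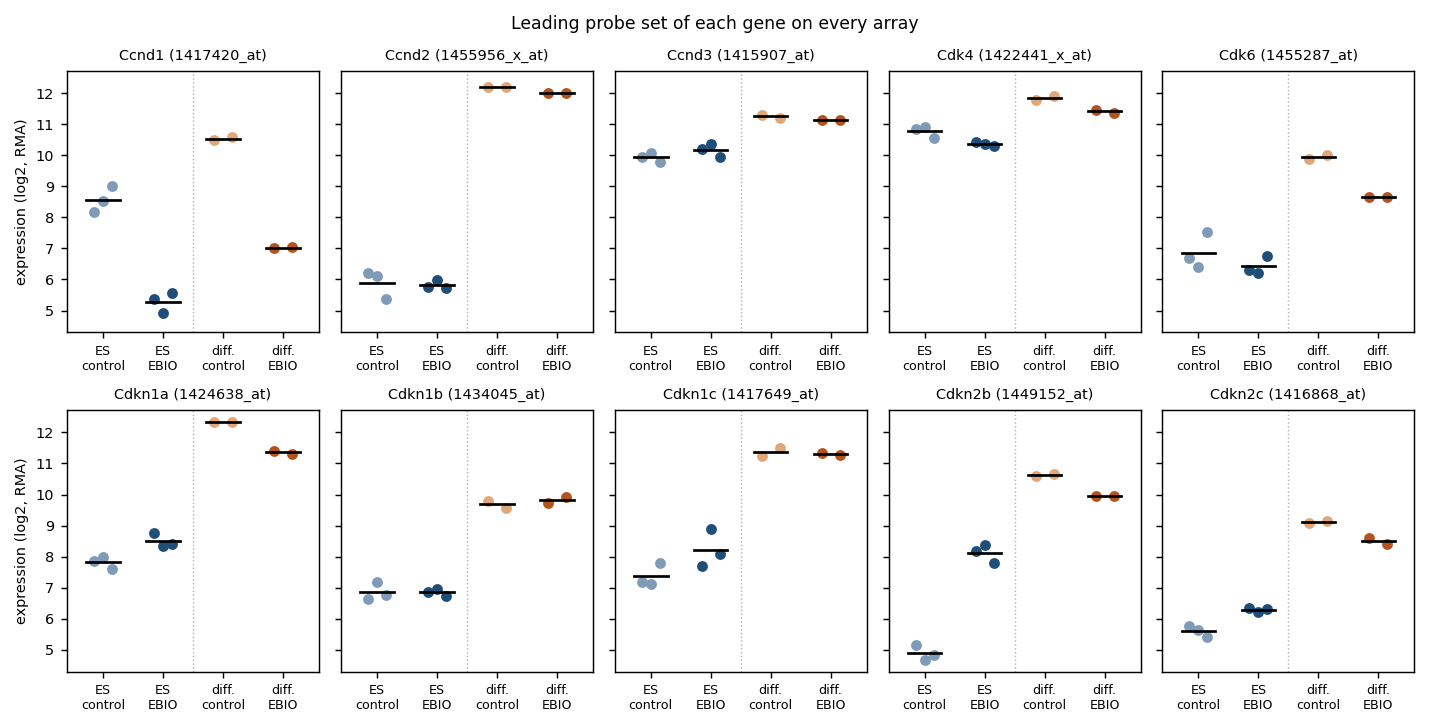
Log2 RMA value (y axis) of the leading probe set of each gene on every array, 1 panel per gene; points are arrays, bars are group means, and the dotted line separates the stages, which were normalized as separate sets. Ccnd1 drops in both stages, Cdkn2b rises from 4.90 to 8.12 on average in ES cells and falls from 10.63 to 9.94 in differentiated cells, and Ccnd3 and Cdkn1b passed the test in neither stage.

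Cdk4, the gene of a catalytic partner of D cyclins, was bright everywhere and slightly lower with EBIO. Leading probe set 1422441_x_at read 10.85, 10.92 and 10.55 in control ES cells and 10.41, 10.37 and 10.31 with EBIO. The groups did not overlap, but the lowest control lay close to the highest EBIO array. The difference was -0.41 ± 0.14 (SE, n = 3 each, adjusted p = 0.044, limma), and the other 2 probe sets changed by -0.45 (adjusted p = 0.035) and -0.47 (adjusted p = 0.016). The call of the leading probe set was lost without control array 1 (adjusted p = 0.11) or 2 (0.15) or EBIO array 1 (0.10), 2 (0.10) or 3 (0.13), and with arrays centred on their medians (0.063). Each of the other probe sets also lost its call without control array 2 and without EBIO array 2 or 3, and 1422440_at without control array 1 or EBIO array 1 too. With arrays centred on their medians the call of 1422440_at was lost as well (adjusted p = 0.054, limma).

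In differentiated cells Cdk4 read 11.76 and 11.90 without and 11.47 and 11.37 with EBIO, again with no overlap. The difference was -0.41 ± 0.09 (SE, n = 2 each, adjusted p = 0.0089, limma), and it was lost without EBIO array 2 (adjusted p = 0.059). The remaining probe sets, 1422440_at and 1422439_a_at, fell by 0.42 (adjusted p = 0.014, limma) and by 0.33 (adjusted p = 0.019, limma). Both calls were lost without control array 2 (difference -0.32 and -0.36) or EBIO array 2 (-0.35 and -0.25). The call of 1422439_a_at was also lost without control array 1 (-0.31) and with the 4 groups fitted together (adjusted p = 0.053, limma).

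As Cdk4 fell by a like amount in both stages, its promoter is shown: the 250 bases before its RefSeq start site (GRCm38.p6, chr10:127063285-127063534, plus strand, 5′ to 3′). Capitals mark matches on either strand to CACGTG, the E-box bound by MYC and MAX, or to GGGCGG, the GC box bound by SP1-type factors. Cdk4 is known as a MYC target.
Cdk4: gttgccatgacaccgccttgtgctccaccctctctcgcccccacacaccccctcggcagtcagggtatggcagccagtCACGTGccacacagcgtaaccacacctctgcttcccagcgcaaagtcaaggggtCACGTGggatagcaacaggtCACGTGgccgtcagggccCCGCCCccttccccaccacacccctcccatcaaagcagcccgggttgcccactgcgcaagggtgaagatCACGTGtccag
The window holds 4 CACGTG matches and 1 GC box. Of 32851 promoter windows of this length 6.02% hold CACGTG, 0.0213% hold 4 or more matches, and 32.7% hold a GC box. A match is a description of these letters only.

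Cdk6, the gene of the other kinase partner, fell in differentiated cells. There leading probe set 1455287_at read 9.87 and 10.01 without and 8.65 and 8.65 with EBIO, a difference of -1.29 ± 0.08 (SE, n = 2 each, adjusted p = 9.1e-05, limma). Probe set 1435338_at fell by 1.53. The dimmer 1460291_at read 5.76 and 5.96 without and 4.66 and 4.99 with EBIO, and as only its control arrays lay above the array medians, its difference of -1.03 is given as a description. In ES cells the leading probe set read 6.68, 6.39 and 7.52 against 6.32, 6.21 and 6.74, and the groups overlapped. The difference was -0.44 (95% interval -1.09 to 0.21, adjusted p = 0.27, limma). Control and EBIO arrays of passage 27 were the highest of their groups, and with passage as a replicate block the adjusted p was 0.034 for this probe set and 0.025 for 1435338_at (-0.49).

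Cdkn1a encodes the CIP/KIP inhibitor best known as a target of p53. In ES cells its leading probe set 1424638_at read 7.86, 7.98 and 7.60 without and 8.75, 8.35 and 8.41 with EBIO. Every EBIO array was above every control, with a difference of 0.69 ± 0.16 (SE, n = 3 each, adjusted p = 0.0090, limma). The second probe set, 1421679_a_at, rose by less and was not called (0.32, adjusted p = 0.10). In differentiated cells the leading probe set read 12.34 and 12.33 against 11.40 and 11.31, a fall of 0.98 ± 0.08 (n = 2 each, adjusted p = 0.00017, limma), and the second one changed by -0.91.

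Cdkn1b, the gene of a CIP/KIP inhibitor that is largely controlled by protein turnover, did not pass the test in either stage. Probe set 1434045_at read 6.63, 7.18 and 6.75 against 6.85, 6.96 and 6.73 in ES cells, a difference of -0.01 (95% interval -0.39 to 0.37, adjusted p = 0.97, limma). In differentiated cells it read 9.79 and 9.58 against 9.71 and 9.91 (0.12, 95% interval -0.15 to 0.40, adjusted p = 0.37). Both pairs of groups overlapped. Probe set 1419497_at was dim throughout.

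Cdkn1c is an imprinted CIP/KIP gene expressed from the maternal allele. In ES cells it read 7.17, 7.11 and 7.80 without and 7.70, 8.89 and 8.07 with EBIO, and the groups overlapped through the passage-27 control. The difference of 0.86 (95% interval 0.15 to 1.57) narrowly missed the threshold (adjusted p = 0.057, limma). It was called with passage as a replicate block (adjusted p = 0.029), without control array 3 (1.08, adjusted p = 0.018) and without EBIO array 1 (1.12, adjusted p = 0.029). It was also called with genes reduced to 1 probe set each (adjusted p = 0.047). In differentiated cells it read 11.24 and 11.50 against 11.33 and 11.28 (-0.06, 95% interval -0.32 to 0.21, adjusted p = 0.66).

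Cdkn2b encodes the INK4 inhibitor known as a TGF-beta target. Its only probe set, 1449152_at, read 5.17, 4.68 and 4.84 in control ES cells, just above the array medians, and 8.18, 8.38 and 7.79 with EBIO. The difference was 3.22 ± 0.19 (SE, n = 3 each, adjusted p = 1.1e-05, limma), a 9.32-fold rise from a range in which RMA compresses differences. In differentiated cells it read 10.60 and 10.65 without and 9.94 and 9.94 with EBIO, a fall of 0.69 ± 0.07 (n = 2 each, adjusted p = 0.00061, limma). Neither pair of groups overlapped, and the directions were opposite.

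Cdkn2c encodes a further INK4 inhibitor, prominent in development. Probe set 1416868_at read 5.77, 5.64 and 5.41 in control ES cells and 6.34, 6.22 and 6.32 with EBIO (0.69 ± 0.13, n = 3 each, adjusted p = 0.0038, limma). In differentiated cells it read 9.10 and 9.13 against 8.59 and 8.39 (-0.62 ± 0.09, n = 2 each, adjusted p = 0.0023, limma). As for Cdkn2b, the groups stood apart in both stages with opposite signs. No alternative and no left-out array ended a call of Cdkn2b, Cdkn2c or the leading Cdkn1a probe set in either stage.

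These 3 inhibitor genes changed sign between the stages, so their promoters are set side by side, as the 250 bases before each RefSeq start site (GRCm38.p6, 5′ to 3′ on the gene's strand). Cdkn2b is chr4:89311033-89311282 (minus strand), Cdkn2c is the upstream start at chr4:109666757-109667006 (minus strand), and Cdkn1a has an upstream start at chr17:29090729-29090978 and a downstream one at chr17:29093519-29093768 (plus strand). Capitals mark GGGCGG on either strand and the p53 half-site, a decamer whose consensus reads alike on both strands.
Cdkn2b: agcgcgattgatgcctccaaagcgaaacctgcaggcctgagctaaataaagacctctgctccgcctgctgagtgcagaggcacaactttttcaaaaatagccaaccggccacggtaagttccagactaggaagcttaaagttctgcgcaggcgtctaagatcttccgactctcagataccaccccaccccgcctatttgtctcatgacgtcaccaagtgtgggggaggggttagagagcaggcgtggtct
Cdkn2c: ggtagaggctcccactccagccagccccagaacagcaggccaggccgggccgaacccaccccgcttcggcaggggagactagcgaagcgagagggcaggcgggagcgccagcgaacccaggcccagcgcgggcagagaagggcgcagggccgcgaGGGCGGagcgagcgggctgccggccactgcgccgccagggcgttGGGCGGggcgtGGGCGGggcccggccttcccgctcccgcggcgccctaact
Cdkn1a upstream: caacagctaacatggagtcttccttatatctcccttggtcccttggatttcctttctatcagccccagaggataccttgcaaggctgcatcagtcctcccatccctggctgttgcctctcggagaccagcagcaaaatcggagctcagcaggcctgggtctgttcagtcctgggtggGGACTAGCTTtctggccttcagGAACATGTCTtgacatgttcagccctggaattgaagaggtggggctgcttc
Cdkn1a downstream: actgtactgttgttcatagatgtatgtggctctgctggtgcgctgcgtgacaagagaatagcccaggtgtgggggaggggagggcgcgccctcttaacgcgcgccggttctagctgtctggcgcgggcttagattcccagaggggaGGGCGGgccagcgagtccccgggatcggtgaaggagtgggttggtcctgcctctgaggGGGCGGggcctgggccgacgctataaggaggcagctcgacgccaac
The upstream Cdkn1a window holds 2 p53 half-sites, a motif that 7.13% of windows of this length hold at least once. The share of windows with 2 or more was not counted. The downstream one holds 2 GC boxes, the upstream Cdkn2c window holds 3, and Cdkn2b holds none of the motifs searched. The window of a downstream Cdkn2c start (chr4:109665373-109665622, minus strand), not shown, also holds none. None of the 4 windows holds TATAAA (12.4% of windows), CACGTG or the E2F motifs TTTCCCGC, TTTGGCGC, TTTCGCGC and TTTGCCGC (1.86%), searched on both strands. No motif searched was found in windows of all 3 genes.

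The difference between the EBIO effects of the 2 stages was tested as the effect in differentiated cells minus that in ES cells, over all 10 arrays. Stage went together with the days of EBIO (3 in ES cells, 10 in differentiated cells), the cells present and the normalization set. The dose for differentiated cells is not given. A called difference therefore cannot be assigned to any 1 of these. Of 25 tested probe sets 7 were called, all lower (39.6% of all probe sets called, 18.6% higher and 21.1% lower; of leading ones 43.8%, 19.5% and 24.3%); none was higher, at an unadjusted p under 0.05 either. Cdkn2b differed most, by -3.91 ± 0.26 (SE, adjusted p = 9.6e-07, limma), followed by Cdkn1a at -1.68 ± 0.21 (adjusted p = 0.00012) and Cdkn2c at -1.31 ± 0.18 (adjusted p = 0.00021). For Ccnd1 the leading probe set gave -0.22 (95% interval -0.96 to 0.52, adjusted p = 0.64), and for Cdk4 0.00 (95% interval -0.41 to 0.41, adjusted p = 1.00).

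For Cdk6 the difference was called for 1435338_at, at -1.04 (adjusted p = 0.015, limma). The call of 1460291_at (-0.92, adjusted p = 0.0022) supports nothing, since this probe set was above the array median only on the differentiated control arrays and entered the test through them. The leading one gave -0.85 (95% interval -1.73 to 0.02, adjusted p = 0.12, limma), and -0.85 with an adjusted p of 0.0072 under the replicate block. It was called without ES control array 3 (-1.18, adjusted p = 0.0022), and the call of 1435338_at was lost without differentiated control array 1 (adjusted p = 0.058) or EBIO array 1 (0.050) or 2 (0.056). Cdkn1c, at -0.92 (adjusted p = 0.12), was called without ES control array 3 (-1.14, adjusted p = 0.037) or ES EBIO array 1 (-1.18, adjusted p = 0.042). The Ccnd1 probe set 1448698_at was called at -0.63 (adjusted p = 0.047), a call lost under 12 of its alternatives, among them the absence of ES control array 1 or 2, ES EBIO array 1 or 3, or any differentiated array (adjusted p up to 0.19).

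Across the 4 groups each gene's rank within its arrays gives the order of levels. Ccnd1 (1417420_at) lay at the 88.5th to 92.6th percentile in control ES cells and the 93.4th to 93.9th in untreated differentiated cells. With EBIO it lay at the 58.2nd to 66.5th and the 65.4th to 65.5th percentile, ranges that overlap. The other Ccnd1 probe sets did not overlap there: 1417419_at lay at the 62.2nd to 64.9th percentile in EBIO-treated ES cells and the 57.0th to 61.5th in EBIO-treated differentiated cells, and 1448698_at at the 46.4th to 57.3rd and the 66.4th to 66.8th. Cdkn2b went from the 52.9th to 61.3rd percentile in control ES cells to the 84.5th to 88.8th with EBIO, under the 90.1st to 90.4th of EBIO-treated and the 93.8th to 94.2nd of untreated differentiated cells. With EBIO the ranks of Cdkn2b in the 2 stages lay closer together than without it.

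By leading probe set Cdkn2c and Cdkn1a kept the same order of groups as Cdkn2b: control ES, EBIO ES, EBIO differentiated, control differentiated, with no overlap between neighbours. Within each stage this order restates the EBIO effects given above, so it adds only the step between the stages. The other Cdkn1a probe set, 1421679_a_at, overlapped between control ES cells (78.3rd to 79.9th percentile) and EBIO-treated ES cells (79.5th to 82.0th). Cdkn2c ran from the 64.9th to 69.4th percentile in control ES cells to the 84.0th to 84.5th in untreated differentiated cells, and Cdkn1a from the 84.1st to 86.5th to the 98.7th. Cdk6 (1455287_at) was at the 74.6th to 83.5th percentile in control ES cells, a range that includes that of EBIO-treated differentiated cells (79.8th to 80.1st), and at the 89.9th to 91.1st in untreated differentiated cells. Its probe set 1435338_at was at the 76.6th to 82.0th percentile in control ES cells. In EBIO-treated differentiated cells that probe set was at the 75.2nd to 75.8th, outside this range. Cdkn1b and Cdkn1c were higher in rank in differentiated than in ES cells whatever the treatment. Cdk4 and Ccnd3 stayed between the 95.5th and 98.2nd percentile on all 10 arrays by their leading probe sets.

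**Figure D3:**
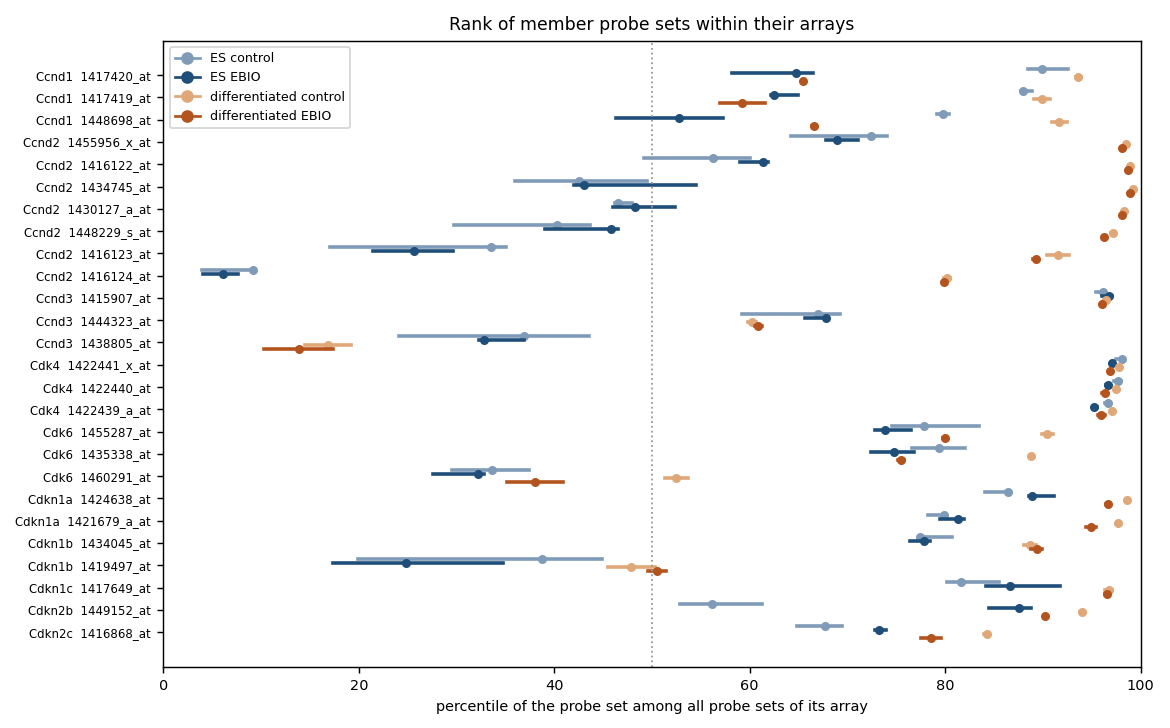
Percentile of each member probe set among all probe sets of its array (x axis); points are group medians, lines run from the lowest to the highest array, and colours mark the 4 groups. All Ccnd2 probe sets jump between the stages with little change by EBIO, while Ccnd1 splits by treatment.

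Other genes of the same network were taken from a list of 41, of which 39 had a named probe set. In ES cells 10 of 37 tested rose and 11 fell (27.0% and 29.7%, against 22.8% and 20.5% of all genes), with a median of -0.05. The largest rises were those of Ccne2, a cyclin E gene (1.63 ± 0.45, SE), E2f7, an E2F repressor (1.14), Cdkn2d, another INK4 gene (1.10), and E2f5 (1.06). The largest falls were those of Tfdp2, an E2F dimerisation partner (-1.47), E2f8 (-0.86), Fbxo5, an inhibitor of the anaphase-promoting complex (-0.76), and Cdk2, the partner of cyclin E (-0.62). All passed an adjusted p under 0.05 in limma.

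In differentiated cells 7 of 38 rose and 17 fell (18.4% and 44.7%, against 31.9% and 31.8% of all genes), with a median of -0.19. Rb1, the retinoblastoma gene, rose from 8.76 to 9.97 (1.20 ± 0.09), and in ES cells it rose too (1.04). Cdkn2d (0.93), E2f6 (0.71) and Rbl2 (0.38), a retinoblastoma relative, also rose. Cdkn2a, the neighbour of Cdkn2b, fell most, from 11.13 to 9.24 (-1.90 ± 0.10), while in ES cells its difference was 0.91 (adjusted p = 0.11, not called). Cdc25b (-1.58), Mycn (-1.23) and Skp2 (-1.09), part of the ligase that degrades the Cdkn1b protein, fell as well. Of 26 proliferation markers 11 of 25 tested fell and 2 rose in ES cells (median -0.32), and 20 of 25 fell and 1 rose in differentiated cells (median -0.67).

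**Figure D4:**
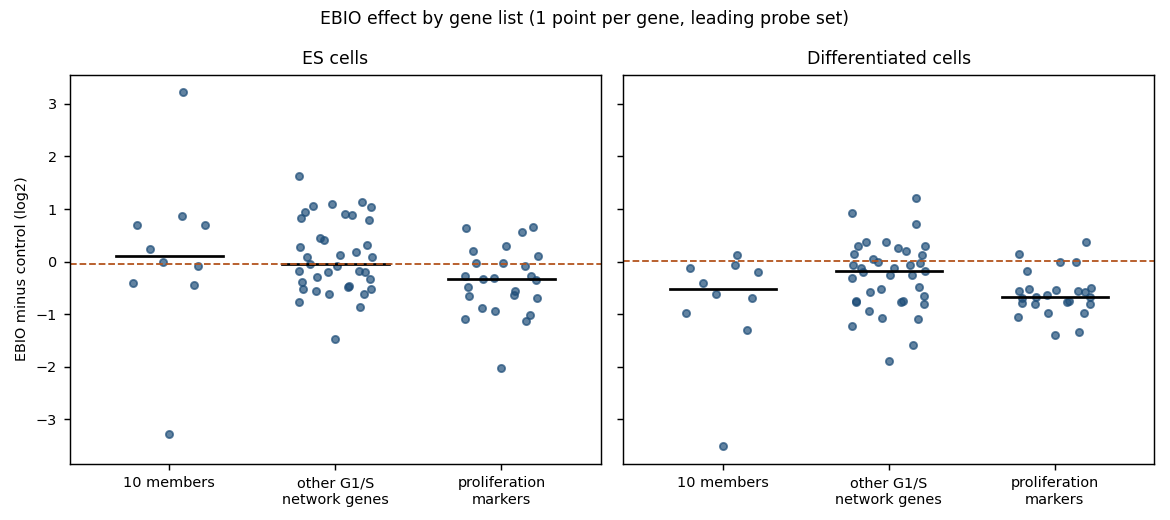
EBIO minus control on the log2 scale (y axis) for the 10 members, the other network genes and the proliferation markers (x axis), 1 point per tested gene by its leading probe set; bars are list medians and the dashed line is the median of all genes tested. In differentiated cells the list medians are -0.51, -0.19 and -0.67, under the dashed line at 0.02.

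The genes whose values ran most like those of a member were sought among 10921 genes tested in both stages, by Pearson correlation over the 10 arrays after centring each stage. Such values share the treatment contrast and its arrays, so high correlations are common. Ptgr1 (0.994) and Stk26 (0.993) were nearest to Ccnd1, Lhfp (0.997) and S100a10 (0.996) to Cdkn2b, and Lsr (0.984) and Cnpy4 (0.981) to Cdkn1a. For Cdkn2c these were Itprid2 (0.984) and Plxnb2 (0.982). For Cdkn1b, which was called in neither stage, the nearest gene, Dbil5, reached 0.853. Ccnd3, Ccnd2 and Cdkn1c were likewise called in neither stage by leading probe set. Their nearest genes reached 0.982 (Rilpl1), 0.966 (Igsf8) and 0.949 (Fbxl4).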

How the data were processed

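RNA of 10 cell samples was hybridised to Affymetrix arrays after biotin labelling, per the labels' protocols. The deposited log2 values are RMA expression values that the authors computed, per the submitters' processing notes; versions are not given in the sources used here. Each pair of arrays was compared by its absolute quantile differences, averaged over the quantiles. Pairs inside the ES set averaged 0.0931 or less, and pairs inside the differentiated set 0.0497 or less. Pairs that crossed the sets averaged 0.910 or more, so the sets had been normalized separately. Array medians were 4.52 to 4.62 and 5.59 to 5.68. No array was left out. Array number, not read depth, limits precision.

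Of 45101 probe sets 64 were controls and left out of tests. Names came from the platform annotation, for probe sets with 1 symbol (34958; 932 had several, 9211 none), updated through a RefSeq table (34754 matched). Probe sets entered a test if they lay above the median of the array on at least 3 arrays (ES cells) or 2 arrays (differentiated cells, difference): 23180 in ES cells, 23666 in differentiated cells and 27475 for the difference. A probe set that passed only through its brighter group had its direction largely set by this filter, so its call supports nothing. Among the members this holds for Cdk6 1460291_at. Tests used limma 3.58.1 in R 4.3.3 with Benjamini-Hochberg adjustment over all tested probe sets and a threshold of 0.05, each stage on its own arrays and the difference on all 10. They were tested on simulated data. The design text calls the samples of a group independent experiments. The p-values rest on the spread between these, which limma draws towards the spread of all tested probe sets. This matters most with 2 arrays per group. For the leading Ccnd2 probe set in differentiated cells the group SDs were 0.00052 and 0.0056, and the SE was 0.071.

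Network genes named were the 4 largest called rises and falls per comparison, by leading probe set; Cdkn2a and Rb1 in ES cells were added after their values were seen. Members and lists were chosen with earlier results of these data known. ES arrays of both groups share passages by number, and for the same passage their deviations from group means correlated at 0.35, 0.22 and 0.64. Between passages 25 and 26 the correlations were 0.25 and 0.15. Between passage 27 and the others they were -0.52 to -0.33, so mainly passage 27 stood apart. The planned fit has no passage block. The alternatives were other filters, 1 value per gene, other normalizations, eBayes with trend and robust settings, the block, all groups together and left-out arrays. Promoters came from RefSeq (GRCm38.p6), which held windows for 7 of the 10 genes.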

Additional observations from a re-analysis of the deposited data

Results flagged for a closer look

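The effect of EBIO in differentiated cells minus that in ES cells passed the test of the difference (limma, adjusted p under 0.05) for 7 probe sets, all negative. It was -3.91 for Cdkn2b, -1.68 and -1.23 for the 2 Cdkn1a probe sets, and -1.31 for Cdkn2c, genes whose effects had opposite signs in the 2 stages. For Cdk6 it was -1.04 (1435338_at). It was -0.92 for Cdk6 probe set 1460291_at, which entered the test only through its bright differentiated control arrays, so that its call supports nothing. For Ccnd1 it was -0.63 (1448698_at), while the other Ccnd1 probe sets were not called. Stage, days of EBIO and normalization set cannot be told apart in these differences. Groups of 2 and 3 arrays are too small to look for single outlying arrays.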

How the results depend on the processing

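Of 68 member results (a probe set in a comparison) 46 kept their call under every alternative run and none reversed. The calls that changed are those of Cdk4, Cdk6, Ccnd2, Cdkn1c, a dim Cdkn1b probe set and 2 Ccnd1 probe sets in the difference between stages. Without the filter on dim probe sets, which tests more of them, the share of probe sets called higher and lower was 10.9% and 9.21% in ES cells, 19.5% and 15.5% in differentiated cells, and 13.8% lower in the difference. With the 4 groups fitted together 21.5% were higher in differentiated cells. With arrays centred on their medians 1 member gene, Ccnd1, was called lower in ES cells. Leaving out single arrays gave 3 to 6 member probe sets and 1 to 2 member genes lower in ES cells, and for the difference 0 to 1 probe sets higher and 3 to 5 genes lower. Without both passage-27 arrays, a choice made after seeing the data, 5 genes were lower in the difference. In the differentiated stage, leaving out an array leaves a lone one assumed to vary like the other group.

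With the replicate number as a block 4 member probe sets rose and 8 fell in ES cells, and 8 were lower in the difference. In differentiated cells the numbers are no stated pairing and their deviations correlated at -0.11; 15 member probe sets fell with the block and 15 with the numbers crossed, the latter added after seeing the data. The block changed no other call than those of Cdk6 and Cdkn1c.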
